A study of Mus musculus with 4 samples.

Results

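Genes for ligands and receptors through which antigen-presenting cells speak to T cells, and for the related receptors CD200R1 and CRLF2, were followed through CD11b+ mouse splenocytes: Cd40, Cd80, Cd86, Cd83, Cd274, Pdcd1lg2, Icosl, Tnfsf9, Cd200r1 and Crlf2. They were listed by name, with earlier results of these data known, and are 10 of the 27998 genes in the table. All 10 had UMIs (unique molecular identifiers, which count each captured RNA molecule once), from 167 for Tnfsf9 to 6401 for Crlf2 over 11631 cells.

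A T cell that meets its antigen needs a further signal, and the B7 proteins CD80 and CD86 give it through CD28, or withhold it through CTLA-4. The related PD-L1 (Cd274), PD-L2 (Pdcd1lg2) and ICOS ligand (Icosl) act on PD-1 and ICOS, and 4-1BB ligand (Tnfsf9) acts on 4-1BB. CD40 receives the CD40 ligand of helper T cells, and CD83 is a surface protein of mature dendritic cells (DCs) that holds MHC class II and CD86 at the surface. CD200R1 is an inhibitory receptor of myeloid cells, and CRLF2 pairs with the IL-7 receptor alpha chain as the receptor for TSLP, an epithelial cytokine that acts on DCs in allergy.

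The cells were sorted from the spleens of C57BL/6 mice of 8 to 12 weeks and profiled by CITE-seq, which reads RNA and antibody-derived tags from the same droplets. One library came from mice in steady state, and the other from mice given 10 µg GM-CSF under the skin once a day for 3 days, with cells taken 24 h after the last injection. Both libraries thus held cells positive for CD11b only, and the tags read CD115, CD11c, Ly6C, MHC II and CD301b. With 1 library per condition, the effect of GM-CSF and of the library cannot be told apart, no test was made, and every interval below covers counting error only.

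The steady-state library held 4827 cells (median 3371 UMIs per cell) and the GM-CSF library 6804 (median 4916), and 8 cell barcodes occurred in both. The authors' names were used for 12 cell types, of which progenitor DCs and the mixed clusters MoMacDC_c1, c2, c4 and c5 formed a bundle of monocytes, macrophages and DCs (2135 and 3940 cells). Markers matched the names of B cells and macrophages. In activated DCs their markers summed to 10179 and 7468 CPM (UMIs per 1e+06 UMIs of the group), with Ccl22 at 0 in steady state. The same list reached 18046.5 and 14778 CPM in the type named cDC2-A and 4151 CPM in steady-state MoMacDC_c4, so its sum was not particular to activated DCs. Over both libraries activated DCs held Ccr7 at 1720 and Fscn1 at 842 CPM. They also carried non-classical monocyte markers at 1367 and 26.9 CPM, whose part was not tested. That list shares Nr4a1 with the list of immediate early genes explained below. Markers did not match for the type named cDC2-A, which carried NK cell markers at 18730 and 19624 CPM with Ccr7, Fscn1 and Ccl22 at 0. Nor did they for MoMacDC_c4, whose 43 steady-state cells carried NK cell markers at 11806 CPM against 1.57 CPM in its 595 GM-CSF cells. Fewer cells of a kind within a type and less RNA per cell cannot be told apart in such sums.

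On the mouse genome GRCm38, Cd274 (chr19:29367455-29388095) and Pdcd1lg2 (chr19:29410919-29471161) are neighbours on the plus strand, with 22823 bases between them. Icosl lies at chr10:78069302-78083913 on the plus strand. Cd80 (chr16:38455561-38496335, plus strand), Cd86 (chr16:36603869-36666081, minus strand) and Cd200r1 (chr16:44765736-44794978, plus strand) share chromosome 16. Cd40 lies at chr2:165055627-165072948, Cd83 at chr13:43784775-43803132 and Tnfsf9 at chr17:57105325-57107757, all on the plus strand, and Crlf2 at chr5:109554709-109558993 on the minus strand. All 10 are protein-coding.

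The 250 bases before the start of both PD-1 ligand genes are shown because these neighbours parted between the libraries: Cd274 was lower after GM-CSF and Pdcd1lg2 was not. The sequences are from RefSeq (GRCm38.p6, plus strand, 5′ to 3′) at chr19:29367188-29367437 and chr19:29410669-29410918. Capitals mark matches on either strand to a GC box (GGGCGG), and the second sequence holds none.
Cd274: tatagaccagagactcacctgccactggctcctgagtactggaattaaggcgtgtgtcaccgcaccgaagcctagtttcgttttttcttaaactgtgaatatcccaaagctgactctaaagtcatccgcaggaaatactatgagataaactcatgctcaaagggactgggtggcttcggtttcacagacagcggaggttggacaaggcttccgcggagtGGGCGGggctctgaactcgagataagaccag
Pdcd1lg2: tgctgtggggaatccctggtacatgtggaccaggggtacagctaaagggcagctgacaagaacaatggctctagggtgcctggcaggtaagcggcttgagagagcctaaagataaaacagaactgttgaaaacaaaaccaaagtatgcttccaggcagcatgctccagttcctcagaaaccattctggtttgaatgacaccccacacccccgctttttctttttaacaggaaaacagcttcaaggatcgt
A GC box was found once before Cd274 and is present in 32.7% of 32851 promoter windows of this length. The windows of Cd80, Icosl and Crlf2 were searched as well, and Icosl held 1 GC box and 2 CCAAT boxes (CCAAT, 33.8% of windows) and Crlf2 held 5 GC boxes. Not all windows end at the gene starts given above. The Cd80 window (chr16:38458683-38458932) lies inside the gene, and the Icosl window (chr10:78069118-78069367) runs past its start. None of the 5 windows matched TATAAA (12.4% of windows), the STAT motif TTCNNNGAA (7.02%), a kappaB motif (0.356%) or an interferon-stimulated response element (2.98%). GC, TATA and CCAAT boxes were added after seeing the data.

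Activated DCs, a rare type of 8 steady-state and 20 GM-CSF cells, held the highest level of several members. Cd83 stood there at 561 CPM (95% Poisson interval 411 to 749) in the steady-state and 510 (387 to 661) in the GM-CSF library, and a UMI was found in 8 of 8 and in 75% of these cells. The next type, B cells, stood at 115 and 112 CPM, and the intervals did not meet in either library. Cd40 stood at 159 (84.5 to 271) and 98.5 (49.2 to 176) CPM in activated DCs and at 75.3 and 51.8 CPM in B cells, so that its first 2 places overlapped in their intervals. In all, 4 members in steady state (Cd40, Cd83, Icosl and Tnfsf9) and 5 after GM-CSF (Cd40, Cd83, Cd274, Pdcd1lg2 and Tnfsf9) were highest in activated DCs, where 10.8% and 8.68% of all genes with at least 50 UMIs were. The types were clustered and named by the same RNA, members not left out, so that these counts are a description only. For Tnfsf9 and Pdcd1lg2 this rested on 1 to 4 UMIs. Granulocyte markers summed to 5297 and 6044 CPM in activated DCs, and their part in these levels was not tested.

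Icosl in activated DCs stood at 183 CPM in steady state (102 to 302, 15 UMIs) and 35.8 CPM after GM-CSF (9.76 to 91.7, 4 UMIs), below the minimum of 50 UMIs for a comparison. Cd274 in activated DCs stood at 122 (58.5 to 224) and 197 (123 to 298) CPM, with overlapping intervals. Cd200r1 had no UMI in the 8 and 20 activated DCs, which allowed up to 36.6 and 26.9 CPM (3 counts). Activated DCs thus carried Cd83, Cd40 and Cd274, while Cd200r1 was not detectable there at this depth.

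**Figure D1:**
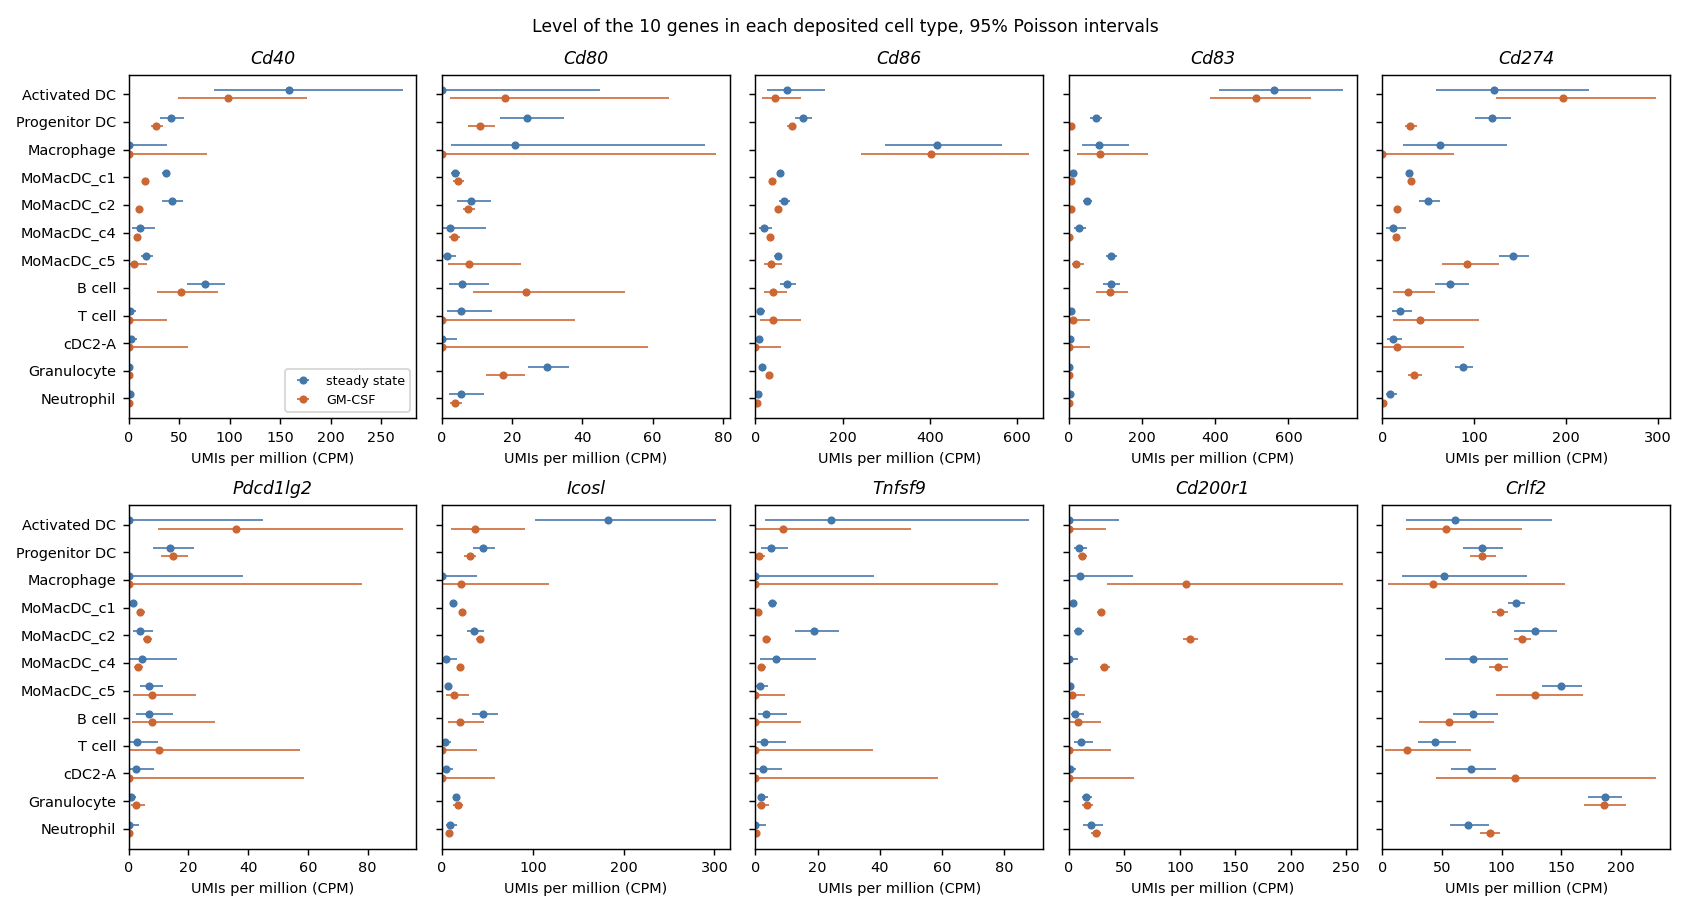
Level of each gene in CPM (horizontal axis, linear from 0) in the 12 deposited cell types (vertical axis), with points for the steady-state (blue) and the GM-CSF library (orange) and bars for exact 95% Poisson intervals. Cd83 stands out in activated DCs (561 and 510 CPM), Cd86 in macrophages (415 and 402 CPM) and Crlf2 in granulocytes (186 CPM in both).

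Cd86, the B7 protein present on resting antigen-presenting cells, had another order. Macrophages led with 415 CPM (297 to 565) in the steady-state and 402 (242 to 628) in the GM-CSF library, with a UMI in 56.0% and 54.5% of cells although their median depth was only 2896 and 1745 UMIs. Progenitor DCs followed at 109 (91.6 to 129) and 82.9 (72.9 to 93.9) CPM, and the intervals of these first 2 types did not meet. The macrophage share was far above that of neutrophils (2.05% and 2.02% at medians of 6461.5 and 4404 UMIs) and of the steady-state cells named cDC2-A (3.27% at a median of 3560 UMIs). Macrophages held no Cd40 or Tnfsf9 UMI in either library, which allowed up to 31.1 and 63.5 CPM.

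Its partner Cd80, the B7 protein that binds CTLA-4 most tightly, was low everywhere and placed differently. In steady state granulocytes (29.9 CPM, 24.6 to 36.1) and progenitor DCs (24.3 CPM, 16.4 to 34.7) led with overlapping intervals, and granulocytes gave 52.4% of the library's Cd80 UMIs. A UMI was found in 5.13% of granulocytes at a median of 1770 UMIs per cell, and in 4.11% of neutrophils at a median of 6461.5. At 1000 UMIs per cell the expected shares were 2.83% and 0.666%, so that the order of the types held at equal depth. After GM-CSF B cells led at 23.9 CPM on 6 UMIs, with overlapping intervals.

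Granulocytes carried PD-L1 and CRLF2 transcripts but hardly any CD40. Cd274 stood at 88.2 CPM (78.8 to 98.3) in steady-state and 34.8 CPM (27.8 to 43.1) in GM-CSF granulocytes, a ratio of 0.397 (0.307 to 0.503). Immediate early genes summed to 13650 and 7124 CPM and neutrophil markers to 1113 and 2067 CPM in these cells, and their part in the Cd274 and Cd86 differences was not tested. Crlf2 stood at 186 CPM (173 to 201) and 186 (169 to 204), the highest of all types in both libraries, with a ratio of 0.999 (0.884 to 1.13). Cd40 had 1 UMI in 1929 and 0 in 1791 granulocytes. Cd86 was the member that was higher in GM-CSF granulocytes, with 31.5 CPM (24.8 to 39.4) against 15.5 (11.7 to 20.1), a ratio of 2.03 (1.42 to 2.91) that was 1.99 with cells holding a B, T or NK cell marker UMI left out. Against 2 calls of 6 members with the minimum of UMIs stood 7.29% of all genes at least 2-fold higher and 3.2% at least 2-fold lower in granulocytes.

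Neutrophils held little of any costimulatory ligand. Cd40 and Cd83 had at most 3 UMIs in either library, and Cd274 stood at 8.25 CPM (3.77 to 15.7) and 1.22 CPM (0.446 to 2.65). Cd200r1 and Crlf2, genes of receptors and not of ligands, stood higher than these. Crlf2 stood at 71.5 and 90.0 CPM, a ratio of 1.25 (0.987 to 1.62). Cd200r1 stood at 20.2 CPM (12.6 to 30.5) and 24.5 CPM (20.3 to 29.3), with a UMI in 12.3% and 12.1% of cells. A Cd200r1 UMI was found in 2.04% and 1.27% of B cells and 0.467% of the steady-state cells named cDC2-A, at medians of 2976.5, 2741 and 3560 UMIs. In steady state neutrophils held the highest Cd200r1 level of all types, with granulocytes next at 15.8 CPM and overlapping intervals. Of 1 member with the minimum in activated DCs, 1 in macrophages, 1 in the type named cDC2-A and 3 in neutrophils, and none in T cells, 0 were called. The percentages of all genes called higher and lower were 7.98 and 15.4 in activated DCs, 4.68 and 9.13 in macrophages, 3.52 and 13.5 in the type named cDC2-A, 3.62 and 2.48 in neutrophils and 1.83 and 10 in T cells.

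B cells, which also present antigen to helper T cells, carried Cd40, Cd83, Cd86 and Icosl. In steady state these stood at 75.3, 115, 71.9 and 45.7 CPM, and 28.1% of B cells held a Cd40 UMI against 0.685% of neutrophils. Cd274 stood at 74.2 CPM (57.3 to 94.6) in steady state and 27.9 CPM (11.2 to 57.5) after GM-CSF, a ratio of 0.400 (0.145 to 0.819), the only call among 5 members with the minimum in B cells, where 13.8% of genes were at least 2-fold lower and 1.41% higher. Those 196 and 79 B cells carried granulocyte markers at 3185 and 729 CPM, non-classical monocyte markers at 799 and 112 CPM, classical monocyte markers at 724 and 163 CPM and immediate early genes at 4597 and 1271 CPM, and the part of these in the Cd274 difference was not tested.

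In the bundle of monocytes, macrophages and DCs, 5 members differed at least 2-fold between the libraries. Cd200r1 was higher after GM-CSF, and Cd40, Cd83, Cd274 and Tnfsf9 were lower. That is 1 of 10 members higher where 8.66% of 10860 genes were, and 4 of 10 lower where 9.46% of genes were. The median ratio was 0.825 over the members and 0.959 over all genes. The counts were the same with called doublets, cells over 10% mitochondrial UMIs or cells with a lymphoid marker UMI left out.

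Cd200r1 stood at 4.21 CPM (3.24 to 5.39) in steady state and 55.0 CPM (52.2 to 57.8) after GM-CSF, a ratio of 12.9 (10.1 to 17.1). A UMI was found in 2.76% and 24.9% of bundle cells at nearly equal medians of 6894 and 6654 UMIs. Of its 1814 UMIs in both libraries 82.1% lay in GM-CSF bundle cells, and MoMacDC_c2 alone gave 61.5% of the UMIs of the GM-CSF library.

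Within the bundle the Cd200r1 difference was seen in MoMacDC_c1 and MoMacDC_c2. In MoMacDC_c2 it stood at 8.14 CPM (4.34 to 13.9) and 109 CPM (103 to 116), a ratio of 12.9 (7.82 to 25.3), and in MoMacDC_c1 at 3.78 and 28.9 CPM, a ratio of 7.54 (5.36 to 11.1). In MoMacDC_c4 it had no UMI in the 43 steady-state cells and 184 in the 595 GM-CSF cells, at least 4.80-fold higher against the 3 counts a 0 allows, but those steady-state cells are the ones with NK cell markers. Progenitor DCs stood at 8.90 and 11.7 CPM on 46 UMIs, and MoMacDC_c5 held 3 and 1 UMIs. The few macrophages held 1 and 5 UMIs (10.4 and 106 CPM). Granulocytes did not move with it, with a ratio of 1.03 (0.664 to 1.56). The Cd200r family has near-identical copies beside Cd200r1, so some of its reads may have been left uncounted or placed on a copy.

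Cd83 showed the deepest difference among the members that were lower. It stood at 35.4 CPM (32.5 to 38.6) in steady-state and 4.80 CPM (4.01 to 5.70) in GM-CSF bundle cells, a ratio of 0.136 (0.111 to 0.164). The ratio was 0.0619 in progenitor DCs (72.8 against 4.36 CPM), 0.133 in MoMacDC_c2 (50.1 against 6.66 CPM), 0.189 in MoMacDC_c5 (115 against 20.5 CPM) and 0.417 in MoMacDC_c1 (10.6 against 4.39 CPM). Outside the bundle, activated DCs (0.907, 0.606 to 1.37) and B cells (0.980, 0.613 to 1.48) had ratios near 1. Thus 4 of the 5 bundle types were lower, the fifth being under the minimum of UMIs, while activated DCs and B cells were not past 2-fold. MoMacDC_c5, lower at 0.189, held as much Cd83 in steady state as B cells did, at 115 CPM in each. The difference between types was not tested.

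Cd40 stood at 34.4 CPM (31.5 to 37.5) and 13.5 CPM (12.1 to 14.9), a ratio of 0.392 (0.342 to 0.449), and the share of bundle cells with a UMI was 17.6% and 7.46%. It was at least 2-fold lower in MoMacDC_c1 (0.438) and MoMacDC_c2 (0.236) but not in progenitor DCs (42.1 against 27.5 CPM, 0.652, 0.456 to 0.944). Tnfsf9 stood at 6.22 CPM (5.02 to 7.62) and 1.92 CPM (1.43 to 2.52), a ratio of 0.310 (0.215 to 0.438). Its UMIs came mostly from MoMacDC_c1 and MoMacDC_c2, with ratios of 0.139 and 0.183.

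The cells under these names were not alike in both libraries. MoMacDC_c1 lay mainly in clusters 5, 2 and 6 in steady state (441, 304 and 297 of 1277 cells) and in clusters 1 and 2 after GM-CSF (512 and 290 of 1342). MoMacDC_c2 lay mainly in cluster 3 in steady state (87 of 177) and in clusters 0 and 3 after GM-CSF (649 and 496 of 1471). From steady state to GM-CSF, classical monocyte markers went from 3214 to 870 CPM in MoMacDC_c1 and from 1134 to 441 CPM in MoMacDC_c2, where progenitor DC and cDC markers went from 516 to 103 CPM and cDC2 markers from 72.0 to 3.01 CPM. Within cluster 2, nearly all MoMacDC_c1 in both libraries, Cd40 stood at 70.2 CPM (59.5 to 82.2) and 29.2 CPM (22.2 to 37.8). Within cluster 3, nearly all MoMacDC_c2, Cd40 stood at 42.6 and 14.4 CPM and Tnfsf9 at 34.4 CPM (22.3 to 50.8) and 6.18 CPM (3.83 to 9.45), so that these differences were present within a shared cluster, while the part of the makeup in the ratios by type was not tested.

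Cd274 stood at 54.2 CPM (50.6 to 58.1) and 23.3 CPM (21.5 to 25.2), a ratio of 0.430 (0.386 to 0.477). The types disagreed in this. It was lower in progenitor DCs (119 against 30.5 CPM, 0.257), which carried granulocyte markers at 7920 against 1656 CPM and non-classical monocyte markers at 743 against 113 CPM, and MoMacDC_c2 (50.1 against 15.9 CPM, 0.316), while MoMacDC_c5 reached 0.653 (143 against 92.1 CPM) and MoMacDC_c1 1.10 (28.6 against 31.4 CPM, 0.925 to 1.30). MoMacDC_c5, the type with the highest Cd274 level of the bundle and with non-classical monocyte markers at 4314 and 1955 CPM, made up 486 of 2135 steady-state and 139 of 3940 GM-CSF bundle cells. The granulocyte list does not separate granulocytes from neutrophils, since it summed to 101960 and 95046 CPM in granulocytes and 256158 and 196579 CPM in neutrophils. Neutrophil markers in progenitor DCs went from 1422 to 410 CPM. Nr4a1 is in both the non-classical monocyte list and the immediate early list, so these sums are not separate readouts. In cluster 14 lay 29 of 152 steady-state and 7 of 393 GM-CSF progenitor DCs. The paper lists Cxcr2, Mmp9 and S100a8, all on the granulocyte list, among genes of that cluster and others. Called doublets were 0 of the 152 and 17 of the 393, so leaving them out removed no steady-state progenitor DC. The part of granulocyte, neutrophil and monocyte RNA, of cluster 14 and of cell numbers in the Cd274 ratios above, and in the Cd83 ratio of progenitor DCs, was not tested.

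The other 5 members did not pass 2-fold in the bundle. Pdcd1lg2, next to Cd274 on the chromosome, stood at 3.68 CPM (2.77 to 4.79) and 5.76 CPM (4.89 to 6.74), a ratio of 1.56 (1.14 to 2.17), and in progenitor DCs at 13.8 and 14.8 CPM with a ratio of 1.05 (0.601 to 2.003). Icosl stood at 16.1 CPM (14.1 to 18.2) and 29.2 CPM (27.2 to 31.3), a ratio of 1.81 (1.57 to 2.11). Cd80 (1.08, 0.827 to 1.43), Crlf2 (0.893, 0.841 to 0.949) and Cd86 (0.761, 0.698 to 0.830) stayed nearer to 1. Without progenitor DCs, a setting chosen after seeing the data, Icosl passed 2-fold (13.4 against 29.0 CPM, 2.16), so that 2 members were higher and 4 lower.

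Icosl and Cd80 differed by type. Icosl was higher in GM-CSF MoMacDC_c1 (11.7 against 22.2 CPM, 1.90, 1.497 to 2.42), near equal in MoMacDC_c2 (35.7 against 42.0 CPM, 1.17, 0.889 to 1.58) and lower in progenitor DCs (45.3 against 30.5 CPM, 0.671, 0.478 to 0.957). In MoMacDC_c4 its ratio was 3.49 (1.18 to 36.3) on 2 steady-state UMIs. It was 0.816 once cells with a lymphoid marker UMI were left out. That kept 8 of the 43 steady-state cells and 1 steady-state Icosl UMI, too few to give a direction. Of the 4 types with the minimum, Cd80 was at least 2-fold lower in progenitor DCs alone, at 24.3 CPM (16.4 to 34.7) against 10.7 CPM (7.34 to 15.2), a ratio of 0.442 (0.260 to 0.753), and granulocyte markers moved with it there as given above.

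Over the 12 types, 54 pairs of member and type had the minimum of UMIs, and 18 were called, 5 higher and 13 lower after GM-CSF. Per type, the percentages of all genes called higher and lower were 5.81 and 8.06 in progenitor DCs, 5.48 and 7.26 in MoMacDC_c1, 6.02 and 6.81 in MoMacDC_c2, 12.7 and 12 in MoMacDC_c4, and 2.43 and 6.73 in MoMacDC_c5. Beside these stood 0 and 3 of 8 members in progenitor DCs, 1 and 3 of 9 in MoMacDC_c1, 1 and 4 of 10 in MoMacDC_c2, 2 and 0 of 6 in MoMacDC_c4, and 0 and 1 of 4 in MoMacDC_c5.

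**Figure D2:**
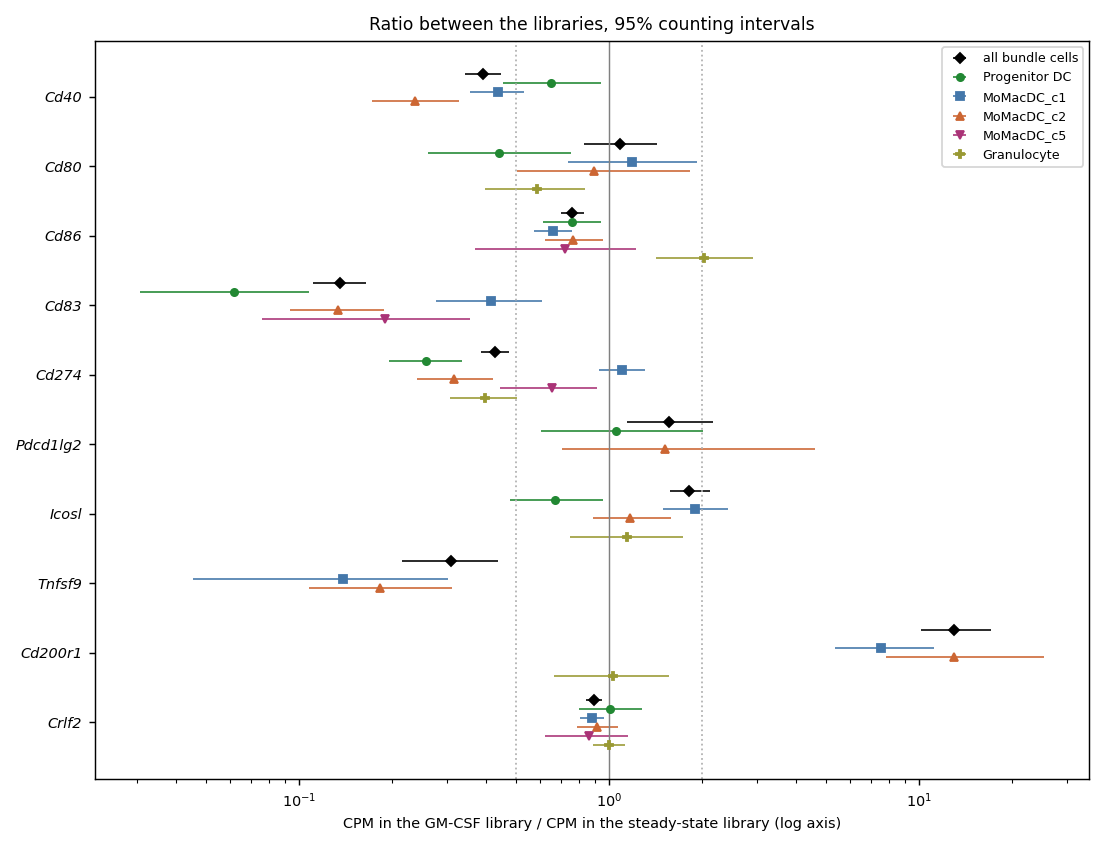
Ratio of the CPM in the GM-CSF library to that in the steady-state library (horizontal log axis) for each gene with at least 50 UMIs, in all bundle cells, 4 of its types and granulocytes, with bars for 95% counting intervals and dotted lines at 2-fold either way. Cd200r1 lies at 12.9 in the bundle and 1.03 in granulocytes, and Cd83 at 0.136 in the bundle.

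A list of 10 immediate early genes, which respond within minutes to handling and stimuli, moved with the library. Their sum was 7046 CPM in steady-state and 2342 CPM in GM-CSF bundle cells, and all 10 were lower after GM-CSF, from a ratio of 0.0994 for Nr4a1 to 0.621 for Junb. The sum was 8073 against 2390 CPM in progenitor DCs, 7753 against 3319 in MoMacDC_c2 and 6778 against 1864 in MoMacDC_c1. In activated DCs, where Cd83 had a ratio of 0.907, the sum was 12107 against 1630 CPM. The part of this response in the lower Cd83, Cd40, Cd274 and Tnfsf9 was not tested, and the list was chosen after seeing the data. Nr4a1 is also on the non-classical monocyte list. It stood at 596 CPM in steady-state and 59.2 CPM in GM-CSF bundle cells, where that monocyte list summed to 1462 and 206 CPM.

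Other genes of the same pathways were counted by lists chosen with earlier results known, and each count stands beside the 8.66% of all genes higher and 9.46% lower in the GM-CSF bundle. Of 13 measured other ligands and receptors of antigen-presenting cells, 2 were at least 2-fold higher and 3 lower in the GM-CSF bundle. The higher were Cd200r3, an activating relative of Cd200r1 (0 UMIs against 151, at least 27.8-fold), and Tnfsf8, the CD30 ligand (2.54 against 9.08 CPM, 3.53). The lower were Ceacam1, a TIM-3 ligand (198 against 34.2 CPM, 0.172), Lgals9, the gene of galectin-9 (70.9 against 28.1 CPM, 0.396), and Tnfsf13b, the gene of the B cell factor BAFF (10.5 against 4.25 CPM, 0.405).

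Of 15 genes of CD40 signalling none was higher and 3 were lower: Ikbkb, a kinase that frees NF-kappaB (318 against 141 CPM, 0.445), Traf3, an adaptor of CD40 (37.5 against 16.8 CPM, 0.448), and Nfkbia, the NF-kappaB inhibitor (534 against 251 CPM, 0.470). Of 11 genes around the TSLP receptor, 5 were higher and 1 lower. Ccl17, a chemokine induced by TSLP in DCs, stood at 0.0669 CPM (1 UMI) and 13.7 CPM (372 UMIs), a ratio of 137 (36.6 to 8132). Il1rl1, the IL-33 receptor, had a ratio of 26.9 (1.07 against 29.7 CPM), Cish, a STAT5 target, 7.33, Il7r, the partner of CRLF2, 5.81 (0.535 against 3.29 CPM) and Tslp itself 2.23 on 57 UMIs, while Stat3 was lower at 0.486. Crlf2 itself stayed at 116 and 104 CPM, so that of the receptor's chains Il7r differed and Crlf2 did not pass 2-fold.

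Of 11 DC maturation genes, Socs2 was higher (3.13) and 5 were lower, led by Ccl5 (161 against 13.8 CPM, 0.0854), Marcksl1 (0.229), Il4i1 (0.252), Samsn1 (0.279) and Tnfaip3 (0.459). The steady-state cells of MoMacDC_c4 with NK cell markers also carry Ccl5, and its part in this was not tested. Of 5 T cell partner genes with the minimum, Tnfrsf18 was higher (5.55 against 20.6 CPM, 3.70) and Cd28 (0.0482), Cd27 (0.454) and Btla (0.482) were lower. Over both libraries Cd28 and Cd27 stood at 440 and 256 CPM in T cells and Btla at 167 CPM in B cells, and from steady state to GM-CSF the bundle's NK cell markers went from 360 to 6.35 CPM, its B cell markers from 45.3 to 5.35 CPM and its T cell markers from 2.68 to 1.51 CPM, whose part was not tested. List medians were 0.762, 0.661, 1.41, 0.645 and 0.482 in the order given, beside 0.959 for all genes.

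The bundle was divided by the authors into 17 clusters, and the members did not share one of them. These clusters were made from the same RNA, members not left out, so that levels by cluster are a description only. Cd200r1 was led by cluster 0, with 143 CPM in its 668 GM-CSF cells and 7.50 CPM in its 14 steady-state cells, followed by cluster 3 at 77.7 and 6.88 CPM. In the 19 GM-CSF and 29 steady-state cells of cluster 13, all of MoMacDC_c1, Cd40 stood at 191 CPM (127 to 276) and 143 CPM (97.5 to 201), the highest of any cluster. The cells of cluster 13 differed in markers, since activated DC markers stood at 1051 CPM in its GM-CSF and 93.6 CPM in its steady-state cells. Without cluster 13 the same number of members passed 2-fold, 1 higher and 4 lower.

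Cluster 4 (432 of its 460 steady-state cells were MoMacDC_c5) and cluster 9 (100 of its 122 steady-state cells were progenitor DCs) held high steady-state Cd274 (134 and 116 CPM) and Cd83 (117 and 91.9 CPM). After GM-CSF the same clusters stood at 88.7 and 35.0 CPM for Cd274 and at 20.3 and 7.40 CPM for Cd83. Cluster 2 differed, with Cd274 at 58.7 CPM (49.0 to 69.8) and 62.5 CPM (52.1 to 74.4) in the 2 libraries. Cluster 16 held 151 CPM of Cd274 in 15 steady-state cells, which carried B cell markers at 1105 CPM.

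**Figure D3:**
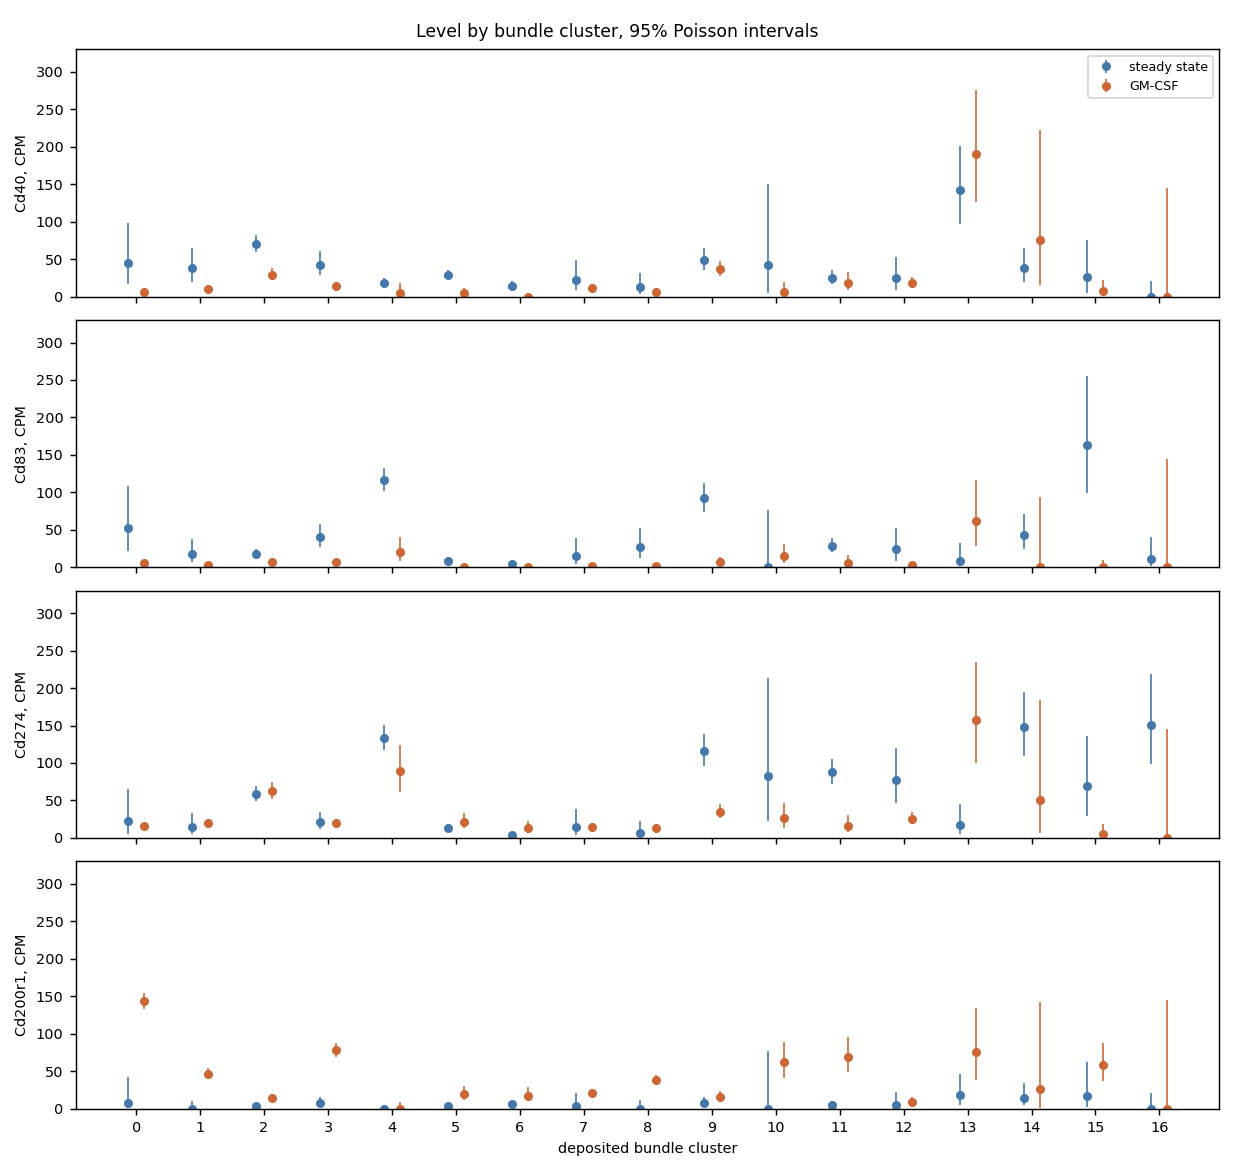
Level in CPM (vertical axes, linear from 0) of Cd40, Cd83, Cd274 and Cd200r1 in the 17 clusters of the bundle (horizontal axis) in the steady-state (blue) and the GM-CSF library (orange), with exact 95% Poisson intervals. Cd200r1 peaks in GM-CSF cells of cluster 0 (143 CPM), Cd40 in cluster 13 (191 and 143 CPM), and steady-state Cd83 and Cd274 are high in clusters 4 and 9.

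The authors also gated cells with high CD115, the receptor for M-CSF, into P-I (Ly6C+), P-II (Ly6C- MHC II-), P-III (Ly6C- MHC II+ CD301b-) and P-IV (Ly6C- MHC II+ CD301b+). Their numbers in the GM-CSF library were 187, 8, 126 and 313 cells, and in steady state 139, 8, 12 and 7. The gates used tags, not these genes. With so few cells elsewhere, comparisons were made among GM-CSF P-I, P-III and P-IV and between the libraries in P-I.

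Cd200r1 was ordered P-I, P-III, P-IV, which is a description, since the gene was listed with earlier results of these data known. It stood at 22.2 CPM (15.1 to 31.6) in P-I, 70.3 CPM (52.5 to 92.2) in P-III and 117 CPM (103 to 132) in P-IV, and 12.3%, 32.5% and 47.0% of cells held a UMI at medians of 7232, 5866 and 6883. The intervals of no 2 neighbours met. P-IV to P-I gave a ratio of 5.17 (3.605 to 7.87), P-III to P-I 3.14 (1.99 to 5.11) and P-IV to P-III 1.64 (1.23 to 2.28). Within cluster 1 the levels were 48.5 CPM (22.2 to 92.1) in P-I, 53.5 (33.5 to 81.0) in P-III and 82.5 (50.4 to 127) in P-IV, with overlapping intervals. Within cluster 8 they were 8.64 CPM (1.05 to 31.2) in P-I and 76.5 (53.6 to 106) in P-IV. The part of cluster makeup in the order of the subsets was not tested. P-II held no Cd200r1 UMI in 8 cells, which allowed up to 108 CPM.

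PD-L1 had the opposite order. Cd274 stood at 35.9 CPM (26.6 to 47.3) in P-I, 24.3 CPM (14.4 to 38.5) in P-III and 16.9 CPM (11.96 to 23.2) in P-IV, a ratio of 0.473 (0.301 to 0.733) for P-IV to P-I with overlapping neighbours. Within cluster 1 it stood at 21.6 CPM (5.88 to 55.2) in P-I, 21.9 (10.0 to 41.5) in P-III and 20.6 (6.70 to 48.2) in P-IV. These values rested on 4, 9 and 5 UMIs, too few to tell equal levels from a 2-fold difference. Within cluster 8 it stood at 43.2 CPM in P-I and 12.7 CPM in P-IV, with overlapping intervals. P-I cells of cluster 2 stood at 63.1 CPM, and the part of cluster makeup in the Cd274 order was not tested. Over all cells of P-I, P-III and P-IV, Cd40 stood at 16.5, 10.8 and 7.12 CPM on 47 UMIs, under the minimum between any pair. Icosl was higher in P-IV at 44.0 CPM (35.8 to 53.6) than in P-III at 25.7 CPM (15.5 to 40.1) and P-I at 22.9 CPM (15.7 to 32.4), with a P-IV to P-I ratio of 1.90 (1.28 to 2.96).

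Cd86 and Crlf2 hardly parted the subsets. Cd86 stood at 35.9, 37.9 and 38.7 CPM in P-I, P-III and P-IV, and Crlf2 at 92.5, 104 and 112 CPM. The P-IV to P-I ratios were 1.07 (0.754 to 1.56) and 1.21 (0.976 to 1.51). Cd80, Cd83, Pdcd1lg2 and Tnfsf9 had 15, 9, 15 and 6 UMIs in P-IV, too few to compare.

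Against the 5 members with the minimum, P-IV to P-I called 1 higher and 1 lower where 3.63% and 3.53% of genes were, and P-III to P-I called 1 higher and 0 lower where 1.11% and 2.71% were. P-IV to P-III called none where 1.91% and 1.01% of genes were. In P-I between the libraries 4 members had the minimum and Cd40 alone was called, at 51.3 CPM (38.7 to 66.6) in steady state and 16.5 CPM (10.5 to 24.7) after GM-CSF, a ratio of 0.326 (0.189 to 0.531), where 4.99% of genes were higher and 7.12% lower. Cd274 in P-I was 33.9 and 35.9 CPM, a ratio of 1.06 (0.678 to 1.67). Under the minimum of UMIs, Cd200r1 in P-I stood at 3.66 CPM in steady state and 22.2 CPM after GM-CSF, a ratio of 5.48 (2.15 to 23.7). Icosl (2.04, 1.05 to 4.45) and Cd83 (0.351, 0.106 to 0.930) were also past 2-fold there but under the minimum. Immediate early genes were again lower in GM-CSF P-I cells, at a sum of 1330 against 4149 CPM.

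**Figure D4:**
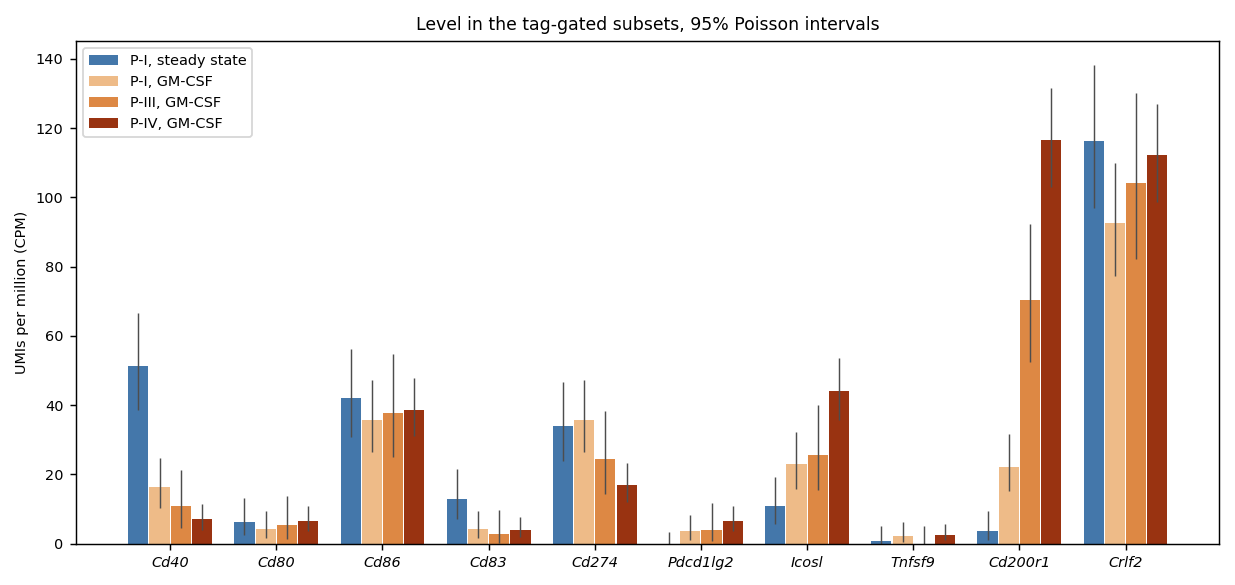
Level in CPM (vertical axis, from 0) of each gene in P-I of both libraries and in P-III and P-IV of the GM-CSF library, with exact 95% Poisson intervals. Cd200r1 reads 22.2 CPM in P-I, 70.3 in P-III and 117 in P-IV, and Cd274 reads 35.9, 24.3 and 16.9 CPM in the same order.

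Between P-IV and P-I the lists held 0 higher and 1 lower of 7 ligands and receptors, 1 and 0 of 1 T cell partner, 2 and 0 of 15 CD40 signalling genes, 2 and 0 of 8 genes around the TSLP receptor and 1 and 1 of 8 maturation genes, beside 3.63% and 3.53% of all genes, with Traf1 in 2 lists. Ccl17 had 95 UMIs in P-IV and none in P-I (at least 19.6-fold), Il1rl1 stood at 74.3 against 4.30 CPM (16.0), Tnfrsf18 at 28.5 against 5.02 CPM (5.33), Traf1, a CD40 adaptor, at 93.0 against 34.4 CPM (2.68), and its relative Traf5 at 59.6 against 28.7 CPM (2.06). Ceacam1 (0.324) and Samsn1 (0.282) were lower. Ccl17 and Il1rl1 were also the only listed genes past 2-fold between P-IV and P-III, at 20.9 and 8.48, where 1.91% of all genes were higher. No listed gene was called between P-III and P-I.

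In P-I between the libraries 2 of 7 listed ligands and receptors, 3 of 14 CD40 signalling genes, 0 of 6 genes around the TSLP receptor and 1 of 8 maturation genes were lower and none higher, beside 7.12% of all genes lower and 4.99% higher. Ceacam1 stood at 0.2504 and Lgals9 at 0.494 among the ligands. Traf3, Map3k14, the kinase of the alternative NF-kappaB route, and Ikbkb stood at 0.369, 0.438 and 0.443 in CD40 signalling. Marcksl1 stood at 0.122 among the maturation genes.

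The surface MHC II tag, a readout the gene list did not use, was set beside the members in 4 bins of equal cell number by its count within each library. In steady state the bin with the most tag held more Cd274 (87.2 against 21.3 CPM in the lowest bin), Cd83 (58.2 against 17.9), Cd40 (48.6 against 25.2), Icosl (30.4 against 7.09) and Cd80 (10.95 against 3.18). Cd86 was 71.2 against 55.8 CPM and Crlf2 106 against 107 CPM. With the tag taken as a share of all 5 tags in place of its count, the ratio of the highest to the lowest bin went from 4.10 to 7.32 for Cd274, from 3.26 to 8.499 for Cd83 and from 0.897 to 1.67 for Tnfsf9, and Crlf2 stayed at 0.990 and 1.08.

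In the GM-CSF library Cd274 showed no such order, at 21.9 CPM in the highest and 26.2 CPM in the lowest bin. Cd200r1 did, at 70.7 against 20.4 CPM, and Icosl stood at 35.4 against 18.9 CPM and Cd40 at 17.1 against 5.76 CPM. The Cd200r1 order rested on the tag count, since its ratio of the highest to the lowest bin was 3.46 by count and 1.05 by share of all 5 tags. Without progenitor DCs the highest steady-state bin still held 74.0 CPM of Cd274 and 54.9 CPM of Cd83 against 21.3 and 19.5 CPM in the lowest, while Cd86 was level at 55.4 and 57.4 CPM.

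**Figure D5:**
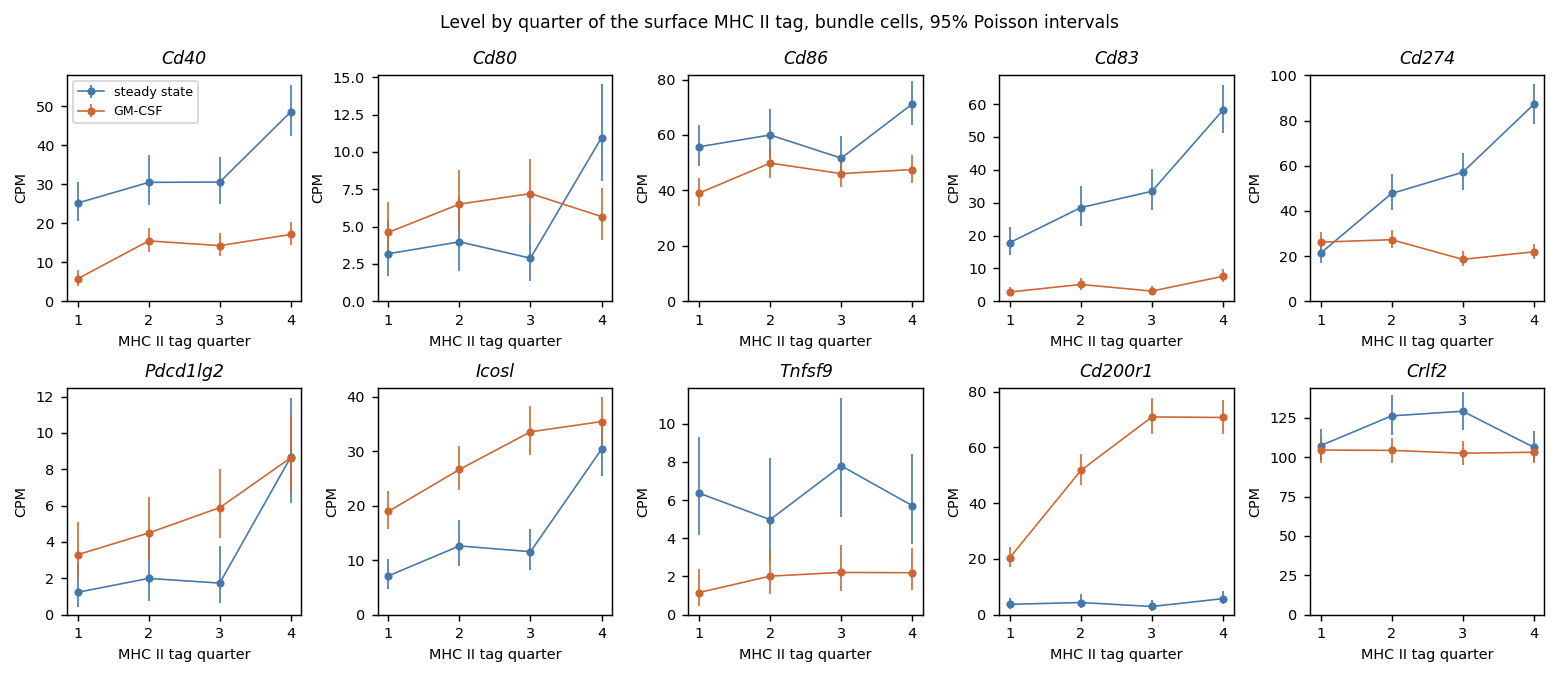
Level in CPM (vertical axes, from 0) of each gene in bundle cells by bin of the MHC II tag count (1 lowest, 4 highest) within the steady-state (blue) and GM-CSF library (orange), with exact 95% Poisson intervals. Cd274 climbs from 21.3 to 87.2 CPM in steady state and stays between 18.5 and 27.3 CPM after GM-CSF, and Cd200r1 climbs from 20.4 to 70.7 CPM after GM-CSF.

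The other tags gave further orders. Cd200r1 in the GM-CSF library was 109 CPM in the bin with the most CD301b tag and 22.3 CPM in that with the least. Low Ly6C went with Cd274 and Cd83 in steady state, at 111 and 96.5 CPM in the lowest Ly6C bin against 21.7 and 8.45 CPM in the highest. MoMacDC_c5 was 486 of the 2135 steady-state bundle cells and held Cd274 and Cd83 at 143 and 115 CPM. The part of cell types in the orders by tag was not tested. Bins of different libraries cover different tag counts, with median MHC II tags of 5 to 424 in the steady-state and 56 to 786 in the GM-CSF library, and were not compared between libraries.

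The deposited cell cycle phases, which are calls per cell over a bundle of several types, were set beside the members. In steady state Cd274 stood at 59.9 CPM in 1622 G1 cells and 26.4 CPM in 135 G2/M cells, Cd83 at 39.5 and 11.3 CPM, and Cd40 at 37.8 and 15.1 CPM, and with Cd86 (63.8 and 41.4 CPM) these were the 4 of 10 members whose intervals did not meet. Cd80 stood at 5.09 and 6.59 CPM with overlapping intervals. After GM-CSF Cd200r1 stood at 68.8 CPM in 2523 G1 cells and 27.2 CPM in 757 G2/M cells, and Crlf2 at 108 and 97.6 CPM with overlapping intervals. The lower Cd83 after GM-CSF was present within G1 cells too, at 6.54 against 39.5 CPM.

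Counted per cell, 46.7% of steady-state and 43.6% of GM-CSF bundle cells held UMIs of 2 or more members, and no cell held more than 7 of the 10. At 1000 UMIs per cell the expected number of members was 0.328 and 0.279 in the bundle, 1.10 and 0.778 in activated DCs, and 0.126 and 0.142 in neutrophils. Of 52 steady-state bundle cells with a Pdcd1lg2 UMI, 26 also held Cd274, which was 5.11% of the 509 cells with Cd274, and after GM-CSF it was 30 of 138 and 5.73% of 524. Icosl and Cd200r1 shared 234 GM-CSF cells, 34.2% of those with Icosl and 23.9% of those with Cd200r1. Among all bundle cells, Cd274 was found in 509 of 2135 in steady state and 524 of 3940 after GM-CSF. Cd200r1 was found in 980 of 3940 after GM-CSF. The part of depth per cell and of cell type in these overlaps was not tested.

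Across 24 groups of cell type and library, the genes with a pattern most like a member were named by Pearson r of log2(CPM + 10) among 9751 genes, as a description only, since groups of 1 library share depth and handling. Cd40 was followed most closely by Hmgn3 (0.855), Trim7 (0.840) and Il4i1 (0.833), and Cd83 by Il4i1 (0.811), H2-Eb2 (0.811) and Phtf2 (0.808). Cd274 went with Crebl2 (0.840), Birc3 (0.818) and Tmem63b (0.817), and Cd86 with Dnase2a (0.887), Cltc (0.878) and Rasgef1b (0.865). Icosl went with Bmp2k (0.848), Scn2b (0.826) and Fam109a (0.788), and Cd200r1 with En2 (0.843), Slc13a3 (0.790) and Tbxas1 (0.783). Crlf2 went with Myo1f (0.873), Chmp2a (0.871) and Furin (0.867), Cd80 with Tmem41b (0.787), D930030I03Rik (0.770) and Cass4 (0.748), and Pdcd1lg2 with Mcat (0.888), Pdp2 (0.813) and Zfand1 (0.786). Tnfsf9 had too few UMIs to be matched.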

How the data were processed

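CD11b+ splenocytes were profiled in 2 libraries, 1 in steady state and 1 after GM-CSF. UMIs were counted by the authors with Cell Ranger 3.0.2 on mm10, and antibody tags with CITE-seq-Count. Barcodes under 200 or over 5000 genes, or over 15% mitochondrial, had been removed by the authors, who named types, bundle clusters, subsets and phases after Seurat clustering. The deposited whole-number counts and these names were used as given. Counts were summed per group and library as CPM with exact Poisson intervals, and shares of cells were given exact Clopper-Pearson 95% intervals. A ratio had 0.5 counts added to each sum and an exact binomial-share interval, and was called at 2-fold or more with at least 50 UMIs over both groups. Expected shares at 1000 UMIs per cell left out shallower cells. The method was tested on simulated data.

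Scrublet called 141 (2.92%) and 186 (2.73%) doublets, which were kept except in an alternative. Gene positions are from GENCODE on GRCm38. All members were named in every comparison, and listed genes when called, up to 6 per list, largest first. The lists were other ligands and receptors, T cell partners, CD40 signalling, TSLP receptor signalling and DC maturation, with marker lists for the cell types, and the members and lists were chosen with earlier results of these data known. The immediate early genes, the tags besides MHC II, 3 promoter motifs and the bundle without progenitor DCs or cluster 13 were added after seeing the data. Alternatives covered doublets, the minimum of UMIs, the added count, totals without the 20 most abundant genes, per-cell means, the mitochondrial limit, lymphoid marker cells and the tag scale. Python 3.11.15, scanpy 1.11.5, scipy 1.17.1 and numpy 2.4.6 were used.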

Additional observations from a re-analysis of the deposited data

Results flagged for a closer look

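The libraries differed in opposite directions in different cell types for 2 members, each with a counting interval that left out 1, and with 1 library per condition the difference between types was not tested. The ratio of GM-CSF to steady state was 2.03 for Cd86 in granulocytes and 0.658 in MoMacDC_c1. For Icosl it was 1.90 in MoMacDC_c1 and 0.671 in progenitor DCs.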

How the results depend on the processing

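No paired analysis was possible because each condition had 1 library and the labels carry no replicate numbers. The count of 5 members past 2-fold in the bundle was 5 or 6 under every alternative run, and 6 with per-cell means or without progenitor DCs (the latter chosen after seeing the data). Of the counts by cell type, 18 became 57 (29 higher, 28 lower) with no minimum of UMIs. In P-I 1 became 4 with a minimum of 20 UMIs and 5 with none. With no minimum, P-IV against P-III went from 0 to 1 and P-III against P-I from 1 to 2. Genes with fewer UMIs enter these counts by construction. The Icosl ratio in MoMacDC_c4 went from 3.49 to 0.816 with cells holding a B, T or NK cell marker UMI left out. The latter rested on 1 steady-state UMI in 8 cells, too few to give a direction. Under that setting Cd80 in progenitor DCs (0.405) and Tnfsf9 in MoMacDC_c1 (0.180) fell under the minimum of 50 UMIs, and Cd86 in granulocytes (1.99) missed 2-fold. Of 83 ratios, 3 left their interval with per-cell means and none with doublets left out. Shares of cells with a UMI moved for all 20 of 20 at 1000 UMIs per cell, so shares at different depths are not comparable as they stand. By MHC II bin, 7 of 20 ratios left their interval with the tag as a share of all 5 tags, among them Cd200r1 after GM-CSF (3.46 to 1.05). Groups of few cells, such as activated DCs (8 and 20 cells), macrophages (25 and 22) and P-II (8 and 8), limit the precision.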
